A study of Mus musculus with 16 samples.

Results

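The opioid system of the dorsal root ganglia (DRGs) was followed through 8 genes, the receptor genes Oprm1, Oprd1, Oprk1 and Oprl1 and the genes of the peptide precursors Penk, Pdyn, Pomc and Pnoc. They were taken by gene symbol from the 52636 genes of the count files, and all 8 passed the filter on low counts that left 21371 genes for testing. DRGs at levels L3-6 came from 16 male C57BL/6J mice, 3 to 4 months old, with 1 mouse per library and 4 mice per group. Sham-Saline mice had sham surgery and saline injections, SNI-Saline mice had tibial spared nerve injury (SNI, in which the common peroneal and sural branches of the left sciatic nerve are tied and cut) and saline, and Sham-DMI and SNI-DMI mice had the same surgeries and received the tricyclic antidepressant desipramine (DMI) at 15 mg/kg by intraperitoneal injection 2 times per day for 3 weeks. The study's results place the start of injections 4 weeks after surgery, and its methods give 4 months. The question for these genes is whether the DRG transcripts for opioid receptors and opioid peptides differed with nerve injury, with DMI, or with DMI in one surgical state only.

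Opioid receptors are G protein-coupled receptors that act through inhibitory G proteins, which lower cyclic AMP, open inwardly rectifying potassium channels and close presynaptic calcium channels. Oprm1 encodes the mu receptor, the main target of morphine, Oprd1 the delta receptor, Oprk1 the kappa receptor and Oprl1 the nociceptin receptor. The precursors are cut into active peptides by prohormone convertases, Penk into enkephalins, Pdyn into dynorphins, Pomc into beta-endorphin and melanocortins, and Pnoc into nociceptin. In DRGs the receptors are made by sensory neurons and carried to their central and peripheral endings, where they reduce transmitter release. The RNA here is from whole ganglia, so fewer cells of a type and less RNA per cell cannot be told apart.

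Between 41194238 and 73920332 read pairs per library were counted on genes. DRGs are given as the cell type in the labels, under the tissue name spinal cord. The 10 markers of sensory neurons summed to 8297 to 10300 CPM (the count divided by the TMM-normalized library size and scaled to 1000000), and the 8 markers of spinal cord neurons to 2.66 to 5.52 CPM, with Slc32a1 between 0 and 0.596 and Gad2 between 0 and 0.367. Sprr1a, an epithelial gene switched on in injured sensory neurons, lay at 41.1 to 45.5 CPM in SNI-Saline, 30.1 to 73.9 in SNI-DMI and 0.619 to 2.06 in Sham-Saline. In Sham-DMI it was 12.2 and 9.19 CPM in replicates 2 and 4 and 1.81 and 1.67 in replicates 1 and 3, and Atf3, a transcription factor of injured neurons, was also higher in replicates 2 and 4 (20.6 and 21.9 CPM) than in replicates 1 and 3 (11.4 and 13.7). Values without these 2 libraries, a choice made after seeing the data, are given beside most of the receptor, Penk and pathway results that rest on Sham-DMI. Where none is given, the result may also depend on them. Over all genes, leaving them out changed the calls from 89 to 36 for injury under DMI, from 3438 to 1924 for injury averaged over treatments and from 674 to 1278 for DMI under SNI. The library numbers in the labels run from 17 to 24 for DMI and from 33 to 40 for saline, with SNI-Saline at 33 to 36 and Sham-Saline at 37 to 40, so library order and group cannot be told apart.

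Per kilobase of exon, the 8 transcripts spanned a wide range. Penk stood first with 26.7 CPM per kb (5.21 to 51.3 over 16 libraries), followed by Oprl1 with 7.12, Oprd1 with 3.97 and Oprm1 with 1.97 CPM per kb. Pomc (0.662 CPM per kb), Oprk1 (0.377), Pnoc (0.207) and Pdyn (0.0906) followed. Each neighbour in this order kept its place in 15 or 16 of 16 libraries, so the order of levels held across mice when the union of all annotated exons was the length. Oprm1 has 31 annotated transcripts over 8.04 kb of exons, with a longest transcript of 2.42 kb, and the length of the longest transcript moved it to 6.54 CPM per kb, above Oprd1 in 16 of 16 libraries and below Oprl1 in 12 of 16. On that length Pomc exceeded Oprk1 in only 11 of 16 libraries. The place of Oprm1 among the receptors, and of Pomc beside Oprk1, thus depends on the length used.

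**Figure D1:**
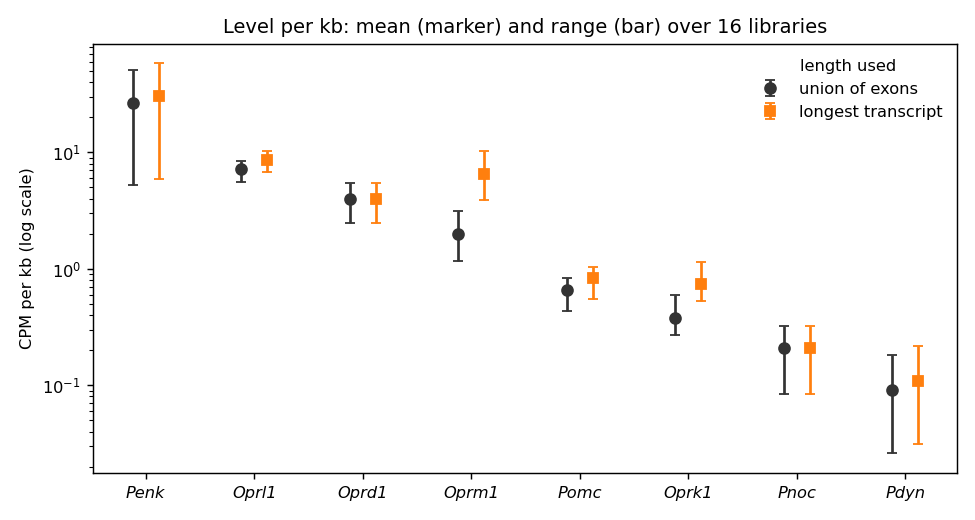
Levels of the 8 opioid genes in CPM per kb on a log axis, with markers for the mean and bars for the range over 16 libraries, by the union of annotated exons (circles) and by the longest transcript (squares). Penk is the highest with both lengths (means of 26.7 and 30.2 CPM per kb), and Oprm1 moves most between them (1.97 and 6.54).

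By edgeR on all 16 libraries, the opioid genes called in any comparison were receptors, and Oprm1 was not among them. DESeq2 and some other settings called Oprm1, as given below. Averaged over both treatments, 3 of the 4 receptors, Oprd1, Oprk1 and Oprl1, were lower after SNI at an adjusted p under 0.1 by edgeR's quasi-likelihood test with Benjamini-Hochberg adjustment over all 21371 genes, and no precursor passed in either direction. In this comparison 16.1% of all genes were called and 8.41% of all genes were called as lower. Averaged over both surgeries, Oprd1 was the 1 opioid gene called, and it was lower with DMI, where 30.2% of all genes were called and 15.6% were called as lower. The separate comparisons of 4 mice with 4 gave 1 lower receptor for injury under saline (Oprk1, with 11.9% of all genes called) and 1 for injury under DMI (Oprl1, with 0.416%). They gave 0 opioid genes for DMI under SNI (3.15% of all genes called) and 0 for DMI under sham, where 23.3% of all genes were called. For DMI under SNI, DESeq2 called 1 (1859 over all genes). No gene of the whole table passed the test of the interaction between surgery and drug (0.0% called), in which 7.85% of all genes had a nominal p under 0.05 and DESeq2 called 16 genes.

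**Figure D2:**
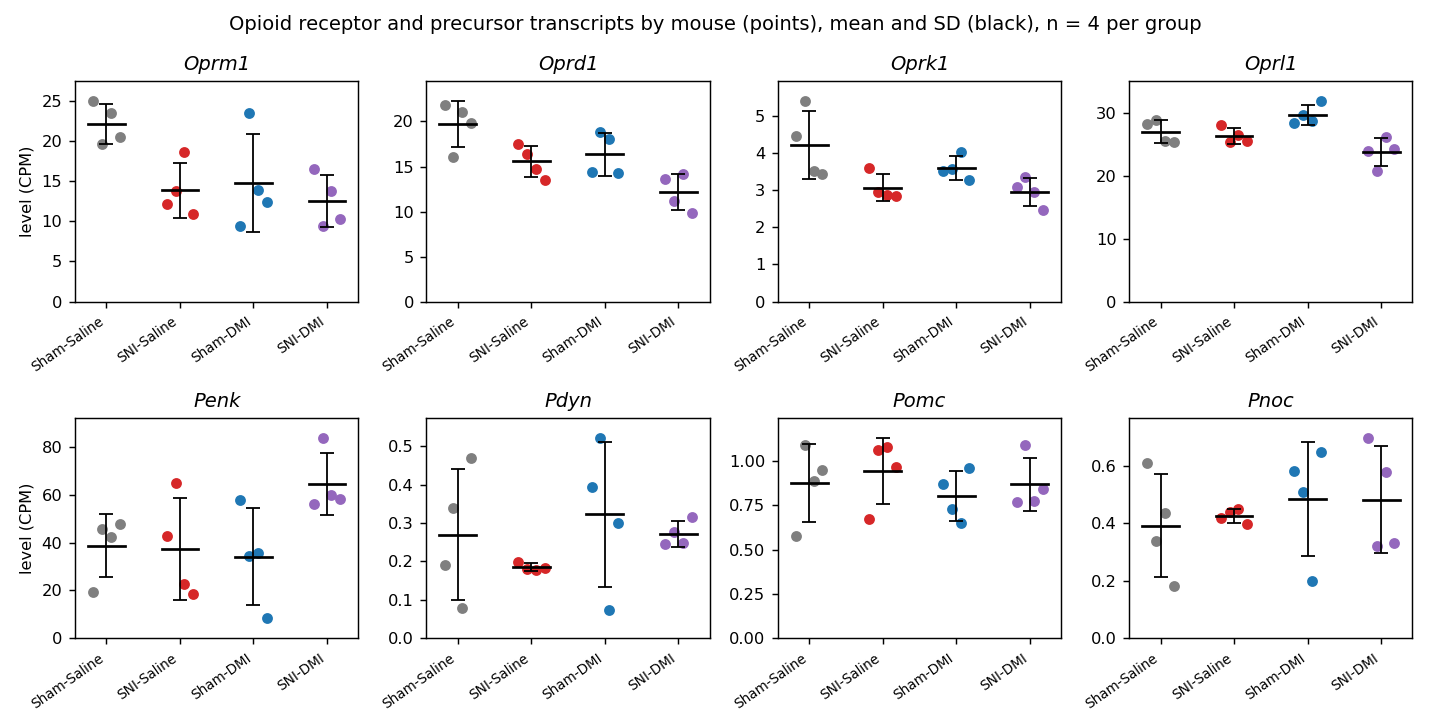
Level of each opioid gene in CPM (y axes from 0, a scale for each gene) in every mouse of the 4 groups, with the mean and SD in black (n = 4). Sham-Saline lies above SNI-Saline without overlap for Oprm1 (19.6 to 24.97 against 10.9 to 18.7 CPM), SNI-DMI lies below Sham-DMI for Oprd1 and Oprl1, and in the 4 separate comparisons the precursors overlap apart from Pdyn with DMI under SNI.

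Oprd1 (ENSMUSG00000050511, chr4:132110726-132144486 on the minus strand of GRCm38) was the receptor with the most even pattern. It had 21.9, 16.1, 21.03 and 19.9 CPM in the Sham-Saline mice and 17.5, 16.4, 14.8 and 13.5 in the SNI-Saline mice. In the Sham-DMI mice it had 14.4, 18.8, 18.1 and 14.3 CPM, and in the SNI-DMI mice 13.6, 11.2, 14.2 and 9.86. The highest level was thus in uninjured mice without DMI and the lowest in injured mice with DMI, and SNI-DMI lay wholly below Sham-DMI, as did 2.15% of all genes, while SNI-Saline overlapped Sham-Saline through Sham-Saline replicate 2. Averaged over treatments, Oprd1 fell after SNI from 18.04 to 13.9 CPM, a log2 fold change of -0.38 (SE 0.0896, 95% interval -0.57 to -0.20, edgeR adjusted p = 0.0170). Averaged over surgeries, it fell with DMI from 17.6 to 14.3 CPM, a log2 fold change of -0.31 (SE 0.0895, 95% interval -0.50 to -0.12, edgeR adjusted p = 0.0179). Both averaged calls held in all 8 alternative analyses and without any 1 library, although the DMI estimate of -0.31 lies short of the fold cut-off of 0.32 that the study set. Each averaged comparison uses all 16 libraries, so they are not independent of each other.

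By edgeR, none of the 4 separate comparisons called Oprd1. The log2 fold changes were -0.34 for injury under saline (adjusted p = 0.110), -0.43 for injury under DMI (0.207), -0.35 for DMI under SNI (0.154) and -0.27 for DMI under sham (0.158), all by edgeR. These sizes lie close together, and the estimate of the interaction was -0.08 (95% interval -0.46 to 0.29). Several of the separate values lie near the threshold. DESeq2 called Oprd1 for injury under saline (adjusted p = 0.0583), injury under DMI (0.0564) and DMI under SNI (0.0741). With the 8 libraries of the comparison alone, edgeR called it for injury under saline (0.0429) and DMI under SNI (0.0981), and injury under saline also passed with at least 10 counts required in every library (0.0990). Without both Sham-DMI replicates 2 and 4, Oprd1 gave -0.41 for injury under DMI (0.447), -0.28 for DMI under sham (0.227) and -0.34 for injury under saline (0.0992), and the averages kept their calls (-0.38, 0.0433 for injury and -0.32, 0.0276 for DMI). Without single libraries, injury under saline passed without Sham-Saline replicate 2 (-0.42, adjusted p = 0.0507), Sham-DMI replicate 1 (-0.34, 0.0934), Sham-DMI replicate 4 (-0.34, 0.0997) or SNI-DMI replicate 4 (-0.34, 0.0902). Injury under DMI passed without Sham-DMI replicate 1 (-0.50, 0.0747), and DMI under sham passed without Sham-Saline replicate 2 (-0.36, 0.0664) or Sham-DMI replicate 2 (-0.32, 0.0977).

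Oprm1 (ENSMUSG00000000766, chr10:6758506-7038198, plus strand) showed the largest estimate of any receptor under saline but also the widest spread. The Sham-Saline mice had 24.97, 19.6, 23.5 and 20.4 CPM and the SNI-Saline mice 12.1, 13.7, 18.7 and 10.9, so every injured mouse lay below every uninjured one under saline. The Sham-DMI mice had 9.39, 23.5, 13.9 and 12.5 CPM and the SNI-DMI mice 16.5, 9.42, 13.7 and 10.4. Sham-DMI replicate 2 stood at the level of Sham-Saline, while the other 3 Sham-DMI mice lay below every Sham-Saline mouse. Under saline the log2 fold change with injury was -0.67 (SE 0.261, 95% interval -1.24 to -0.11, 13.9 ± 3.41 against 22.1 ± 2.53 CPM, SD, n = 4), and it missed the threshold (edgeR adjusted p = 0.141). Groups without overlap and lower after injury were found for 7.74% of all genes in this comparison.

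With injury under DMI the estimate for Oprm1 was -0.25 (95% interval -0.82 to 0.32, edgeR adjusted p = 0.743), with DMI under SNI -0.15 (-0.72 to 0.42, adjusted p = 0.802) and with DMI under sham -0.57 (-1.14 to -0.01, adjusted p = 0.156). edgeR on all 16 libraries called Oprm1 in no comparison. DESeq2 called it for injury under saline (-0.67, adjusted p = 0.0721) and for injury averaged over treatments (-0.46, 0.0824), and edgeR on the 8 saline libraries alone called it for injury under saline (-0.67, 0.0316). The estimate for the interaction was 0.42 (95% interval -0.37 to 1.22). Sham-DMI replicate 2 decided several of these values. Without it, DMI under sham gave -0.88 for Oprm1 (edgeR adjusted p = 0.0100), DMI averaged over surgeries gave -0.51 (0.0187), injury under saline gave -0.66 (0.0489), and injury under DMI gave 0.08. Injury under saline does not compare this library and depends on it only through the shared filter, scaling, estimate of spread and adjustment over genes. Without both Sham-DMI replicates 2 and 4, DMI under sham gave -0.93 (0.0326), DMI averaged over surgeries -0.54 (0.0340), injury under saline -0.67 (0.0647) and injury averaged over treatments -0.28 (0.362). Injury under saline also passed without SNI-Saline replicate 3 (-0.85, 0.0825) or Sham-DMI replicate 1 (-0.67, 0.0957), and injury averaged over treatments, -0.46 in all mice (0.134), passed without SNI-Saline replicate 3 (-0.55, 0.0776) or Sham-DMI replicate 1 (-0.55, 0.0490).

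The gene body of Oprm1 overlaps 2 genes on the other strand. Gm10945 had 0 counts in every library, and Ipcef1, with 72 to 221 counts, shares 96 of the 8037 exon bases of Oprm1. The libraries were stranded, but the strand setting of the counting is not given in the sources used here, so reads in those bases may be ambiguous. Group means of Ipcef1 ran from 1.84 to 2.62 CPM.

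Promoter sequences were compared for the receptors because Oprd1 and Oprm1 moved together across mice, with a Pearson correlation of log2 CPM of 0.77 over 16 libraries and 0.63 for the deviations from group means. This is a description over libraries that share their groups. RefSeq's table for GRCm38.p6 holds promoters for 5 of the 8 genes (Oprm1, Oprd1, Oprl1, Pdyn and Pomc), from 250 bases before to 50 bases after a start site. The Oprd1 promoter (chr4:132144437-132144736, minus strand) and 1 of the 3 Oprm1 promoters in the table (chr10:6788320-6788619, plus strand) are shown 5′ to 3′, with GC boxes (GGGCGG on either strand) and the E-box (CACGTG) in capitals.
Oprd1: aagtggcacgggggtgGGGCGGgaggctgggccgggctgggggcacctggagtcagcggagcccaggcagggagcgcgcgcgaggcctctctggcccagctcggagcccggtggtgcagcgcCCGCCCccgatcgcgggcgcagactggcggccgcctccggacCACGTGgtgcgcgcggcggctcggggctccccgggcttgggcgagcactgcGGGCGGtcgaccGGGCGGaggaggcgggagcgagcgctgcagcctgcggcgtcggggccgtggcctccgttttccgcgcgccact
Oprm1: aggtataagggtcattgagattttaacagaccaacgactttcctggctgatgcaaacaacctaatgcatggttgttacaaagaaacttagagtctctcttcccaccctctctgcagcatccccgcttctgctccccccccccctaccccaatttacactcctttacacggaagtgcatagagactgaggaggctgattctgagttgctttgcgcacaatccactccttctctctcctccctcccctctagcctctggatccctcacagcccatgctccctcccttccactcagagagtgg
The Oprd1 window has a GC content of 79.3%, above that of 98.7% of the 32817 promoters, and holds 4 GC boxes, at positions -234, -128, -35 and -23 from the start site, and 1 E-box at -86. This Oprm1 window has a GC content of 52.0%, near the median of 52.7%, and holds none of these, nor do the other 2. Over all promoters 35.6% held a GC box and 7.15% an E-box, a CRE (TGACGTCA) was in 1.79% and an AP-1 site (TGANTCA) in 7.81%. No CRE or AP-1 site was found in the windows of the 5 genes, and no motif of the 4 in the 3 windows of Oprl1 or the 2 of Pdyn, while Pomc held 1 GC box at -95. These matches describe the letters in these windows only.

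Oprk1 (ENSMUSG00000025905, chr1:5588466-5606131, plus strand), the least abundant receptor, fell with injury under saline. The Sham-Saline mice had 4.45, 5.39, 3.52 and 3.44 CPM and the SNI-Saline mice 3.61, 2.95, 2.86 and 2.83, and the groups overlapped through SNI-Saline replicate 1. The log2 fold change was -0.46 (SE 0.148, 95% interval -0.77 to -0.15, edgeR adjusted p = 0.0696), in a comparison in which 11.9% of all genes were called and 6.17% as lower. The Sham-DMI mice had 3.50, 3.55, 4.02 and 3.26 CPM and the SNI-DMI mice 3.09, 3.35, 2.94 and 2.46, again with overlap, and the estimate of -0.27 was not called (95% interval -0.59 to 0.04, adjusted p = 0.480). Averaged over treatments Oprk1 fell by 0.37 on the log2 scale after SNI (SE 0.105, 95% interval -0.59 to -0.15, edgeR adjusted p = 0.0356). DMI gave estimates of -0.05 under SNI (95% interval -0.36 to 0.26) and -0.23 under sham (-0.54 to 0.07).

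The call for Oprk1 under saline was not firm. Leaving out Sham-Saline replicate 1 (-0.42, adjusted p = 0.157) or 2 (-0.31, 0.204), or any of the SNI-Saline replicates 2 (-0.43, 0.169), 3 (-0.42, 0.123) and 4 (-0.42, 0.154), ended it. With each library's trends on GC content and gene length removed, it was also lost (-0.30, adjusted p = 0.327), as was the averaged call (-0.26, 0.192), which held without any 1 library. Without both Sham-DMI replicates 2 and 4, Oprk1 gave -0.34 for injury under DMI (adjusted p = 0.626), -0.16 for DMI under sham (0.605) and -0.40 averaged over treatments (0.0662), all by edgeR.

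Oprl1 (ENSMUSG00000027584, chr2:181715016-181720985, plus strand), the most abundant receptor, had the smallest spread between mice. Its levels were 28.3, 28.8, 25.6 and 25.4 CPM in Sham-Saline and 28.0, 25.4, 26.5 and 25.6 in SNI-Saline. The Sham-DMI mice had 28.4, 29.7, 28.8 and 31.9 CPM and the SNI-DMI mice 23.9, 20.8, 26.2 and 24.2. Under DMI the injured mice lay wholly below the sham mice (2.15% of all genes), and under saline the groups overlapped. Oprl1 fell with injury under DMI by 0.32 on the log2 scale (SE 0.0691, 95% interval -0.46 to -0.18, edgeR adjusted p = 0.0653). Only 0.416% of all genes were called in this comparison and 0.0281%, 6 genes in all, as lower. This background is itself unsteady, since the 89 calls became 18 without SNI-DMI replicate 4, 24 without Sham-DMI replicate 3, 33 without SNI-DMI replicate 1, 154 without Sham-Saline replicate 1, 186 and 192 without SNI-DMI replicates 2 and 3, and 903 without Sham-DMI replicate 1. Under saline the difference was -0.04 (95% interval -0.18 to 0.11, adjusted p = 0.812). The interaction, which tests whether both injury effects differ, was -0.28 (95% interval -0.49 to -0.08) with a nominal p of 0.00860 and an edgeR adjusted p of 0.627, so a difference between treatments was not shown for Oprl1.

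DMI gave estimates for Oprl1 of opposite sign in the 2 surgical states, -0.15 under SNI (95% interval -0.29 to -0.0032, adjusted p = 0.264) and 0.14 under sham (-0.01 to 0.28, adjusted p = 0.186), and neither was called. Averaged over treatments, Oprl1 fell by 0.18 after SNI (95% interval -0.28 to -0.08, edgeR adjusted p = 0.0305). The call under DMI was lost without Sham-DMI replicate 2 (-0.31, adjusted p = 0.124) or 3 (-0.32, 0.156) and without SNI-DMI replicate 1 (-0.32, 0.163), 2 (-0.26, 0.113) or 4 (-0.34, 0.153), and also without both Sham-DMI replicates 2 and 4 (-0.27, 0.350), where the averaged call was lost too (-0.15, 0.118). It was also lost in the 8 DMI libraries alone (-0.31, adjusted p = 0.226).

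**Figure D3:**
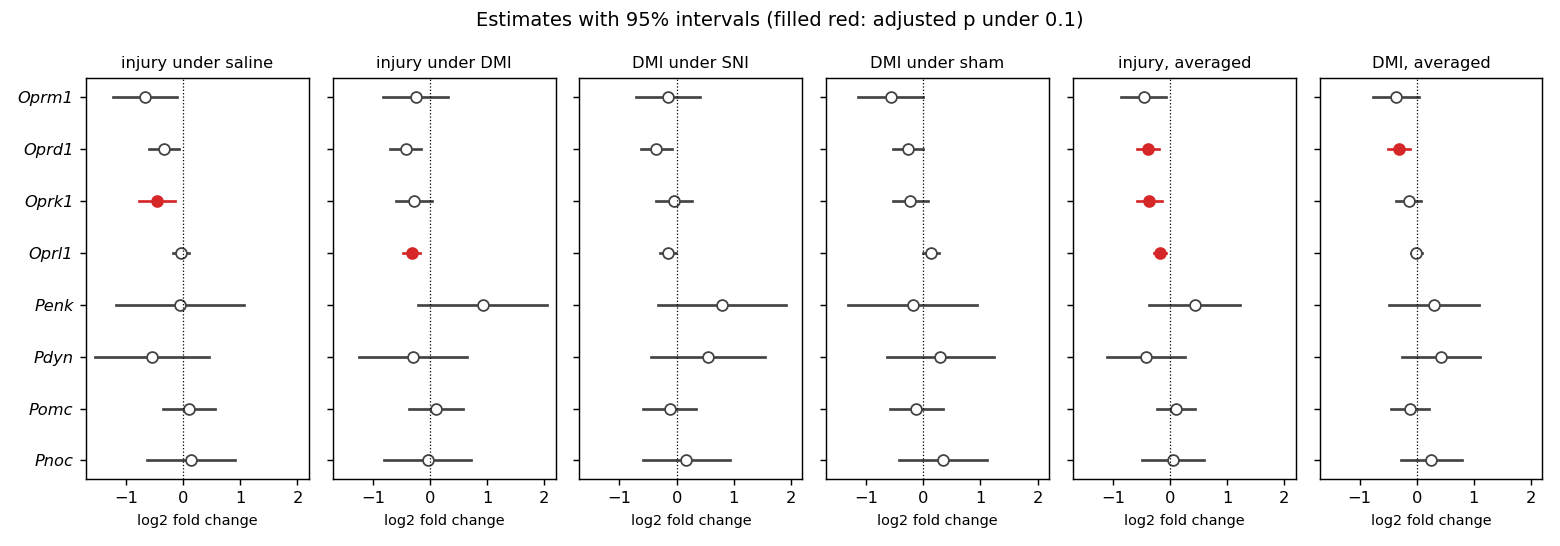
Log2 fold changes of the 8 opioid genes (points) with 95% intervals (bars) in 6 comparisons, where filled red marks an adjusted p under 0.1 and values below 0 are lower after SNI or with DMI. The receptors have estimates below 0 in all injury comparisons, and intervals are widest for Penk, Pdyn and Pnoc.

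All 4 receptors had estimates below 0 in both separate injury comparisons, in DMI under SNI and in the injury and DMI averages, where 50.1%, 49.8%, 51.0%, 48.9% and 52.5% of all genes had estimates below 0. In DMI under sham, Oprl1 was above 0. The sign of Oprm1 for injury under DMI turned without Sham-DMI replicate 2 (0.08) and without replicates 2 and 4 (0.11), that of Oprk1 for DMI with the GC content and length trends removed (0.13 under SNI and 0.08 averaged), and that of Oprl1 for DMI averaged over surgeries, -0.01 in the main analysis, with that removal and 3 other settings. Without single libraries, this sign of Oprl1 turned in 9 of 16 fits, so it is not settled. For DMI under SNI, the sign of Oprm1 turned in 1 such fit and that of Oprk1 in 2, and for injury under saline that of Oprl1 in 1. Cell type markers also differed in the comparisons that called receptors. The 8 markers of injured neurons were all called higher with injury averaged over treatments, where 7.67% of all genes were called higher and 8.41% lower. Of 5 markers of non-peptidergic nociceptors, unmyelinated neurons that serve pain, 4 were called lower, and their sum was 899 to 1166 CPM in Sham-Saline and 846 to 984 in Sham-DMI, against 751 to 911 in SNI-Saline and 688 to 892 in SNI-DMI. Of 8 macrophage markers 6 were called higher with averaged injury, and their sum was 90.5 to 106.8 CPM in Sham-Saline and 72.3 to 99.98 in Sham-DMI, against 115.4 to 200.7 in SNI-Saline and 92.9 to 180.2 in SNI-DMI. The 5 markers of pruriceptors had 3 called lower and the 5 of peptidergic nociceptors 0. Satellite glia and central glia each had 2 of 6 markers called higher. C-fibre low-threshold mechanoreceptors had 1 of 5 and A-fibre neurons 1 of 7 called lower. The 10 general sensory neuron markers had 1 called lower with averaged injury and 0 higher. Their sum was 8297 to 8777 CPM in Sham-Saline and 8369 to 9284 in SNI-Saline. Among mice given DMI, this sum spanned 8681 to 10300 CPM after sham surgery and 9043 to 9554 CPM after nerve injury. Injury under saline, which called Oprk1, had 7 of 8 injured-neuron and 2 of 8 macrophage markers higher and 2 of 5 non-peptidergic markers lower. Sensory neurons, satellite glia and central glia had 1 marker higher each. C-fibre low-threshold mechanoreceptors and A-fibre neurons had 1 lower each (5.69% of all genes higher, 6.17% lower). Injury under DMI, which called Oprl1, had 6 of 8 injured-neuron markers higher and none called in the other lists (0.416% of all genes called). In the DMI average, which called Oprd1 lower, 7 of 7 neutrophil markers were lower, with sums of 10.7 to 35.98 CPM in Sham-Saline and 15.5 to 48.5 in SNI-Saline against 4.47 to 13.97 for Sham-DMI mice and 5.23 to 12.5 for SNI-DMI mice. In the same average 6 of 8 injured-neuron markers were higher and 3 of 5 non-peptidergic markers lower, where 14.7% of all genes were called higher and 15.6% lower. Of the general sensory neuron markers 3 of 10 were higher and 0 lower. Satellite glia had 3 of 6 markers higher and 1 lower, lymphocytes 2 of 7 lower and central glia 2 of 6 lower. Peptidergic nociceptors had 2 of 5 markers higher and 1 lower, and A-fibre neurons 1 of 7 higher and 2 lower. Pruriceptors and C-fibre low-threshold mechanoreceptors had 1 marker higher each, and macrophages and spinal cord neurons 1 lower each. The part of these markers in the receptor differences was not tested.

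Penk (ENSMUSG00000045573, chr4:4133531-4138819, minus strand), the enkephalin precursor and the most abundant opioid transcript, varied widely between mice of a group. The Sham-Saline mice had 19.4, 45.7, 42.3 and 47.8 CPM and the SNI-Saline mice 42.9, 64.8, 22.6 and 18.6. The Sham-DMI mice had 58.0, 34.5, 35.6 and 8.51 CPM and the SNI-DMI mice 56.3, 83.9, 60.1 and 58.2. The lowest mouse was at 56.3 CPM in SNI-DMI, against 19.4 in Sham-Saline, 18.6 in SNI-Saline and 8.51 in Sham-DMI, and the highest mice of SNI-Saline and Sham-DMI reached into the SNI-DMI range, while Sham-Saline, at most 47.8 CPM, did not. The group means were 64.6 ± 12.9 CPM in SNI-DMI, 38.8 ± 13.1 in Sham-Saline, 37.2 ± 21.3 in SNI-Saline and 34.1 ± 20.2 in Sham-DMI (SD, n = 4). The log2 fold change was 0.80 for DMI under SNI (SE 0.515, 95% interval -0.32 to 1.92, edgeR adjusted p = 0.437) and 0.92 for injury under DMI (SE 0.517, -0.20 to 2.05, 0.511). Both 95% intervals included 0, and neither difference was called. Without both Sham-DMI replicates 2 and 4, injury under DMI gave 0.46 (adjusted p = 0.849) and DMI under sham turned to 0.27 (0.765). Injury under saline gave -0.06 (95% interval -1.18 to 1.06) and DMI under sham -0.19 (-1.31 to 0.93). The antisense gene A830012C17Rik, which shares 233 exon bases with Penk, had 0 to 5 counts.

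The spread of Penk was unusual for its level. The SD of its log2 CPM within groups was 0.80, larger than that of 999 of the 1000 genes closest in mean level, whose median SD was 0.09. Oprm1, with 0.38, exceeded 978 of its 1000 neighbours and Oprd1, with 0.21, exceeded 888. Oprk1 (506 of 1000) and Oprl1 (442 of 1000) lay in the middle of theirs. The precursors at low counts, Pdyn (859 of 1000), Pnoc (775) and Pomc (310), had SDs of 0.30 to 0.71 among neighbours that also varied.

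**Figure D4:**
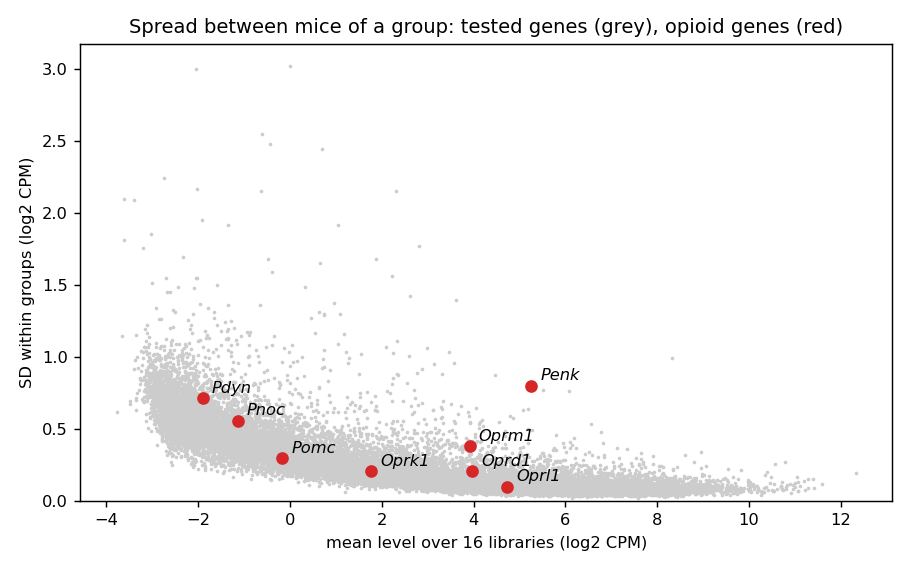
SD of log2 CPM within groups (y axis) against mean log2 CPM over 16 libraries (x axis) for the tested genes (grey) and the 8 opioid genes (red). Penk (SD 0.80) and Oprm1 (SD 0.38) stand above most genes of like level, and Oprl1 (SD 0.10) lies within the cloud.

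The genes whose log2 CPM was most like that of Penk over the 16 libraries were Col11a1, a fibrillar collagen (Pearson r = 0.95), Gpr83, a receptor for neuropeptides (r = 0.94), and Hoxc11, a homeobox gene that marks posterior body levels (r = 0.94). The correlations of deviations from group means were 0.94, 0.96 and 0.96. These 3 genes were picked by their likeness to Penk in the same libraries, so high values follow in large part from the choice. Hoxc11 had 1.95 CPM in Sham-Saline replicate 1, 1.78 and 1.67 in SNI-Saline replicates 3 and 4, and 0 counts in Sham-DMI replicate 4, which by counting error alone allows up to 3 counts, the 4 mice with the lowest Penk. In the other 12 mice it ran from 3.66 to 19.9 CPM, and the highest value was in SNI-DMI replicate 2, which also had the highest Penk.

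Because Hox genes are expressed by body level, other members of the Hox clusters were read after Hoxc11 had been seen. Those given here were chosen after their values were seen. Hoxc10 (8.34 to 22.3 CPM), Hoxd10 (0.426 to 34.95) and Hoxd11 (0.0315 to 12.4) followed Penk with r of 0.93, 0.91 and 0.88, and Hoxd9 with 0.89. The more anterior Hoxc9 (8.86 to 12.9 CPM) had r = 0.22, Hoxc8 (5.38 to 8.38 CPM) had r = -0.64, and Hoxa10 (32.7 to 39.9 CPM) had r = 0.63. Hoxc10, Hoxc11, Hoxd10 and Hoxd11 thus varied widely between mice of a group and in parallel with Penk. Hoxc8 and Hoxc9 varied over narrower ranges, Hoxc8 against Penk and Hoxc9 with little relation to it. Hoxc11 was at 9.65 to 19.9 CPM in all 4 SNI-DMI mice, against 0 to 9.80 in Sham-DMI, 1.67 to 12.7 in SNI-Saline and 1.95 to 13.0 in Sham-Saline. The part of these differences in the Penk values was not tested. These are correlations over 16 libraries that share 4 groups.

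**Figure D5:**
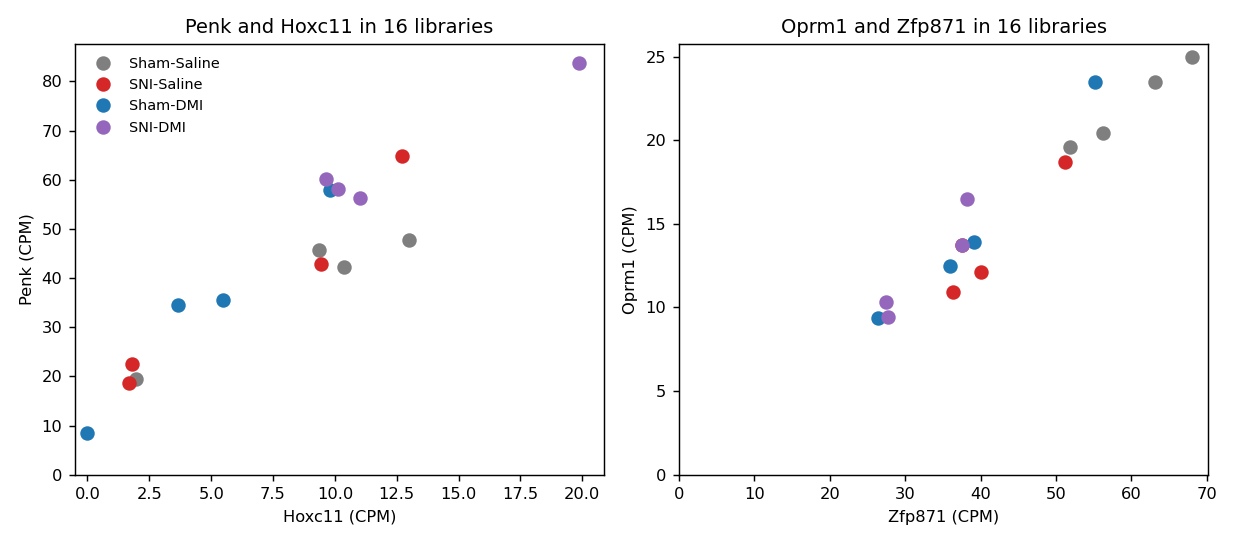
Penk against Hoxc11 (left) and Oprm1 against Zfp871 (right), in CPM on linear axes, with 1 point per mouse coloured by group. The mouse with 0 Hoxc11 counts has the lowest Penk (8.51 CPM), and Sham-DMI replicate 2, at 23.5 CPM of Oprm1, lies among the Sham-Saline mice with 55.1 CPM of Zfp871.

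The genes most like Oprm1 were Zfp871, a zinc finger gene (r = 0.96), Uprt (0.96) and Tcp11l1 (0.96). Zfp871 ran from 51.8 to 68.1 CPM in Sham-Saline and was 55.1 CPM in Sham-DMI replicate 2 and 51.2 in SNI-Saline replicate 3, the mice with the highest Oprm1 of their groups, and 26.4 to 40.02 CPM in the other 10 mice. Tcp11l1 was likewise highest in Sham-DMI replicate 2 within its group (112.6 CPM against 63.5 to 84.1). These genes were picked by their likeness to Oprm1 in the same libraries, so their high levels in these mice follow from the choice. For Oprd1 the most similar genes were Herc3 (0.94), Depdc5 (0.93) and Pcdhac1 (0.92), and for Oprk1 Cdnf (0.82), Fam206a (0.81) and Fam81a (0.81). For Oprl1 they were Gm14127 (0.88), Lhfpl1 (0.86) and Vstm2b (0.85).

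Pomc (ENSMUSG00000020660, chr12:3954951-3960642, plus strand) was scarce but present in every library, with 26 to 77 counts, and had nearly the same mean in the 4 groups. Its range was 0.574 to 1.09 CPM in Sham-Saline and 0.670 to 1.08 in SNI-Saline, and with DMI it was 0.649 to 0.962 in sham and 0.767 to 1.09 in injured mice. All groups overlapped, and the 4 separate estimates ran from -0.12 to 0.11 on the log2 scale, with 95% intervals that together reached from -0.59 to 0.58. Pnoc (ENSMUSG00000045731, chr14:65400673-65425472, minus strand) had 8 to 41 counts per library, with 0.397 to 0.450 CPM in SNI-Saline and 0.181 to 0.609 in Sham-Saline, and 0.1998 to 0.646 and 0.322 to 0.697 in the Sham-DMI and SNI-DMI mice. Its separate estimates lay between -0.04 and 0.34, with 95% intervals that together reached from -0.80 to 1.11. edgeR called neither gene in any comparison.

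Pdyn (ENSMUSG00000027400, chr2:129686565-129699844, minus strand), the dynorphin precursor, was the rarest, with 3 to 38 counts per library. The Sham-Saline mice had 11, 24, 5 and 31 counts, the SNI-Saline mice 11, 11, 11 and 12, the Sham-DMI mice 23, 38, 3 and 19, and the SNI-DMI mice 14, 18, 15 and 21. All SNI-DMI mice lay above all SNI-Saline mice (0.244 to 0.317 against 0.177 to 0.199 CPM), as was the case for 7.33% of all genes in this comparison, but the log2 fold change of 0.55 had a 95% interval of -0.44 to 1.55 (edgeR adjusted p = 0.567). edgeR called Pdyn in no comparison. The most similar genes of Pdyn, Pomc and Pnoc, which included Chrne (0.77), Melk (0.79) and Cdo1 (0.81), reached lower correlations than those of Penk or Oprm1.

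Genes that process and transmit the opioid signal were described through a list of 78 genes, of which 77 were tested. With injury under saline 2 were called higher and 12 lower, 18.2% of those tested against 11.9% of all genes, and the list's median was -0.09 on the log2 scale. The 14 calls became 4 when Sham-Saline replicate 3 or else SNI-Saline replicate 1 was left out (861 and 790 calls over all genes, against 2535) and 6 when Sham-Saline replicate 4 or else SNI-Saline replicate 2 was (1271 and 870), and reached 20 without Sham-DMI replicate 1 (3279). Kcnj6, a subunit of the inwardly rectifying potassium channel opened by opioid receptors, fell by 1.0019 on the log2 scale (edgeR adjusted p = 0.0411), and Cacna1b, the N-type calcium channel that they close, by 0.25 (0.0444). Among the regulators of receptors, Rgs17, which shortens G protein signals, fell by 0.38 (0.0239) and Grk3, a kinase that desensitizes receptors, by 0.37 (0.0250), and Yy1, a transcription factor, fell by 0.20 (0.0270). Ogfr, which binds the enkephalin called opioid growth factor and is unrelated to the opioid receptors, rose by 0.28 (0.0112) and Gng3, a G protein gamma subunit, by 0.23 (0.0309). With the GC content and length trends removed, Rgs17 (-0.14, adjusted p = 0.225) and Gng3 (0.13, 0.214) lost their calls and the other 5 kept theirs. Leaving out Sham-Saline replicate 3 ended the calls of Kcnj6 (-0.96, adjusted p = 0.112), Cacna1b (-0.21, 0.174), Yy1 (-0.18, 0.112) and Gng3 (0.20, 0.102). Leaving out SNI-Saline replicate 1 ended those of Kcnj6 (-0.83, 0.137), Cacna1b (-0.22, 0.153) and Yy1 (-0.18, 0.117), SNI-Saline replicate 2 those of Kcnj6 (-0.88, 0.132) and Cacna1b (-0.26, 0.103), and Sham-Saline replicate 4 that of Cacna1b (-0.21, 0.133). By role, 2 of 12 processing genes, 1 of 12 peptidases, 2 of 10 G protein subunits, 2 of 15 receptor regulators, 2 of 14 effectors, 2 of 5 other binding proteins and 1 of 9 transcriptional regulators were called lower.

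Fewer pathway genes passed with DMI under SNI, 2 higher and 3 lower (6.49% against 3.15% of all genes), with a median of 0.02. Pcsk1n, an inhibitor of the convertase that cuts the precursors, rose by 0.34 (edgeR adjusted p = 0.0794) and Thop1, a peptidase that degrades opioid peptides, by 0.19 (0.0937). Mrgprx1, a receptor of itch and pain neurons that binds a proenkephalin fragment, fell by 0.37 (0.0796), and the G protein subunits Gng2 and Gnai1 fell by 0.19 (0.0854) and 0.18 (0.0619). All 5 lost their calls with the trends removed (0.26 for Pcsk1n, 0.13 for Thop1, -0.34 for Mrgprx1, -0.08 for Gng2 and -0.07 for Gnai1), where 0 of the 77 genes passed and 107 over all genes. The 5 calls were also lost when SNI-Saline replicate 1, 3 or 4 was left out, or SNI-DMI replicate 1, 2 or 3, where 0 of the 77 genes passed and the 674 calls over all genes became 0, or 54 without SNI-Saline replicate 4. They became 1 without Sham-Saline replicate 4 (310 over all genes), 3 without Sham-Saline replicate 2 (399), 2 without Sham-DMI replicate 3 (465) and 12 without Sham-DMI replicate 1 (1917), and 8 without both Sham-DMI replicates 2 and 4 (1278).

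DMI under sham gave the most pathway calls, 10 higher and 19 lower (37.7% against 23.3% of all genes), with a median of -0.06. Gng3 rose by 0.36 (edgeR adjusted p = 0.00155), Thop1 by 0.21 (0.0142), Gnb5, the beta subunit that pairs with regulators of G protein signals, by 0.15 (0.0343), and Ogfr by 0.17 (0.0420). Sp1, a factor that binds GC boxes, fell by 0.30 (0.00570), the inhibitory subunit Gnai3 by 0.20 (0.00907), Rgs17 by 0.37 (0.00971), the chromatin factor Ctcf by 0.20 (0.0113) and Gnai1 by 0.17 (0.0128). With the trends removed, all 5 lower genes and Ogfr lost their calls (-0.12 for Sp1, -0.03 for Gnai3, 0.03 for Rgs17, -0.10 for Ctcf, -0.03 for Gnai1 and 0.13 for Ogfr). In that setting 17 of 77 pathway genes passed, and 4068 of 21324 genes over the whole table. The 29 calls became 15 without Sham-Saline replicate 3 or Sham-DMI replicate 1 (3278 and 3428 calls over all genes, against 4972) and 24 without both Sham-DMI replicates 2 and 4 (5342). Without Sham-DMI replicate 1, Ogfr (0.14, adjusted p = 0.1001) missed the threshold. With injury under DMI 0 of 77 passed by edgeR, where 0.416% of all genes were called, and DESeq2 called 5 (502 over all genes). Without Sham-DMI replicate 1 edgeR called 6 (903), and without both Sham-DMI replicates 2 and 4 it called 0 (36). Averaged over treatments, 3 pathway genes were higher and 15 lower after SNI, 23.4% against 16.1% of all genes. These 18 became 10 without SNI-Saline replicate 1 or Sham-DMI replicate 2, and 11 when Sham-Saline replicate 1 or else SNI-Saline replicate 2 was left out. Over all genes the 3438 calls ran from 2050 to 4876 without single libraries. Without both Sham-DMI replicates 2 and 4, 15 pathway genes passed (1924 over all genes). Averaged over surgeries 14 were higher and 15 lower with DMI, 37.7% against 30.2% of all genes. Without single libraries 23 to 32 passed (5172 to 7184 over all genes, against 6460), and without both Sham-DMI replicates 2 and 4, 34 (7095).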

How the data were processed

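RNA from the L3-6 DRGs of 16 mice was made into stranded mRNA libraries and sequenced in pairs of 50-base reads. The authors aligned the reads to mm10 with a pipeline that their processing notes list with HISAT2, HTSeq and DESeq2, and deposited whole-number counts per Ensembl gene, without normalization. The strand setting of the counting is not given in the sources used here. Lines for reads not assigned to a gene were left out (18.8% to 20.4% of read pairs). Of 52636 genes, 52489 were matched to GENCODE M21, which gave symbols, coordinates on GRCm38, exon lengths and overlaps. Depth was 41194238 to 73920332 read pairs on genes. Counting error is small for Oprm1, Oprd1, Oprl1 and Penk and larger for Oprk1, which had 161 to 382 counts per library. It limits Pdyn, Pnoc and Pomc.

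The main analysis was run with edgeR 4.0.16 in R 4.3.3 (filterByExpr, TMM, robust glmQLFit and glmQLFTest, 1 coefficient per group, all 16 libraries). The 7 contrasts were both injury effects, both DMI effects, their 2 averages and the interaction. A gene was called at a Benjamini-Hochberg adjusted p under 0.1 over 21371 genes. Intervals are at 95%, and log2 CPM has a prior count of 2. The likeness between genes is Pearson's r of log2 CPM over 16 libraries. The alternatives were RLE and upper-quartile scaling, no filter, at least 10 counts in every library, DESeq2 1.42.0, a replicate block, removal of trends on GC content and length (mgcv 1.9.3), the 8 libraries of a comparison alone, a nominal p under 0.05 with a log2 fold change of 0.32 or more in size, each library left out in turn, and, added after seeing the data, 2 Sham-DMI libraries left out. Tables and figures used pandas 2.3.3 and matplotlib 3.10.9. The procedure was tested on simulated data.

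The members, the pathway and marker lists and the tests were chosen with earlier results of these data known. Genes named are all 8 opioid genes, per comparison up to 5 called pathway genes of smallest p in each direction, the 3 genes most like a member, genes that overlap one, and injury markers, apart from 1 pathway gene that is not reported here. The Hox genes other than Hoxc11 were chosen after their values were seen.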

Additional observations from a re-analysis of the deposited data

Results flagged for a closer look

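The levels of the 8 opioid genes in the 4 groups gave 32 groups of 4 mice, and in 2 of them the highest mouse lay so far from the others that its gap exceeded Dixon's 95% critical value for 4 values, as a share of the group's range. Chance gives about 1.6 such groups of 32. Oprk1 in SNI-Saline replicate 1 was 3.61 CPM, with 2.83 to 2.95 CPM in the other 3 mice (gap over range 0.844). Penk in SNI-DMI replicate 2 was 83.9 CPM, with 56.3 to 60.1 CPM in the other 3 mice (0.861), and this mouse also had the highest Hoxc11, Hoxc10 and Hoxd10 of the 16.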

How the results depend on the processing

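The number of opioid genes called moved with the setting, and so did the number over all genes, given in parentheses. For injury under saline 1 was called (2535), against 0 with GC content and length trends removed (1094). The count was 2 with at least 10 counts in every library (2722) and 2 with the replicate block (2111). It was 3 each with DESeq2 (3390), the 8 libraries alone (3547), the nominal cut-offs (1483) and without 2 Sham-DMI libraries (3064). For injury under DMI 1 was called (89), against 2 with DESeq2 (502) or the nominal cut-offs (1109). It was 0 with the 8 libraries alone (6), the replicate block (64) or without 2 Sham-DMI libraries (36). For DMI under SNI 0 were called (674), against 1 with DESeq2 (1859), the 8 libraries alone (1971) or the nominal cut-offs (1161). For DMI under sham 0 were called (4972), against 1 with the nominal cut-offs (2406) or without 2 Sham-DMI libraries (5342). For DMI averaged over surgeries 1 was called (6460), against 0 with the nominal cut-offs (1821) and 2 without 2 Sham-DMI libraries (7095). For injury averaged over treatments 3 were called (3438), with 2 to 4 in the other settings (1229 to 4085). Leaving out single libraries gave 0 to 3, 0 to 2, 0 and 0 to 2 in the separate comparisons in this order. It gave 3 to 4 for the injury average (2050 to 4876) and 1 to 2 for the DMI average (5172 to 7184). The cause of these changes was not tested. No setting called an opioid gene for the interaction by adjusted p. Deviations from group means of same-numbered mice gave r from -0.08 to 0.18 in 24 pairs (median 0). Mice with different numbers gave -0.25 to 0.17 in 72 pairs (median 0.001). Correlations over all genes cannot exclude a shared cage or day, so whether the numbers pair the mice was not settled.

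Signs that turned belong to estimates that were not called, except Rgs17. Without 2 Sham-DMI libraries these were Oprm1 (0.11), Pdyn (0.14) and Pnoc (0.25) for injury under DMI, Penk (0.27) and Pdyn (-0.13) for DMI under sham and Pnoc (0.11) for the interaction. With the trends removed they were Pomc for injury under DMI (-0.0087), Oprk1 for DMI under SNI (0.13), under sham (0.0370) and averaged (0.0812), Rgs17 for DMI under sham (0.0266), Pnoc for the injury average (-0.0359), Oprl1 for the DMI average (0.0104) and Pomc for the interaction (-0.0323). Oprl1 for the DMI average was 0.0003 with RLE and 0.0016 with no filter or DESeq2, and Pomc for the interaction was -0.0066 with RLE, -0.0127 with upper quartile, -0.0074 with DESeq2 and -0.0207 with the replicate block. Without single libraries, ranges that crossed 0 were, for injury under saline, -0.0587 to 0.0004 for Oprl1, -0.47 to 0.16 for Penk, -0.0378 to 0.2457 for Pomc and -0.10 to 0.43 for Pnoc. For injury under DMI they were -0.43 to 0.0759 for Oprm1, -0.57 to 0.0416 for Pdyn, -0.0180 to 0.19 for Pomc and -0.26 to 0.11 for Pnoc. For DMI under SNI they were -0.30 to 0.0201 for Oprm1, -0.12 to 0.0514 for Oprk1 and -0.0477 to 0.32 for Pnoc, and for DMI under sham -0.56 to 0.15 for Penk and -0.0131 to 0.70 for Pdyn. For the averages they were -0.0708 to 0.20 for Pnoc with injury and -0.0208 to 0.0259 for Oprl1 with DMI, and for the interaction -0.15 to 0.58 for Pdyn, -0.13 to 0.15 for Pomc and -0.46 to 0.0608 for Pnoc.

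Over all genes the calls were 2535, 89, 674 and 4972 in the separate comparisons, 1094, 221, 107 and 4068 with the trends removed and 3390, 502, 1859 and 5580 with DESeq2. They were 3438 and 6460 in the averages, and 2195 and 4832 with the trends removed. The pathway counts of 14, 0, 5 and 29 were 9, 1, 0 and 17 with the trends removed. Leaving out single libraries gave 790 to 3279, 18 to 903, 0 to 1917 and 3278 to 6077 calls over all genes in the separate comparisons. Depth limits Pdyn, Pnoc and Pomc, which had 3 to 77 counts per library.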
